A study of Mus musculus with 9 samples.

Results

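The 10 genes described here encode the subunits of the activins and inhibins, the follistatins that bind them, the receptors through which activins signal, and a co-receptor and a decoy receptor of the same pathway. They were chosen by name as a list (*Inha*, *Inhba*, *Inhbb*, *Fst*, *Fstl3*, *Acvr1b*, *Acvr2a*, *Acvr2b*, *Tgfbr3* and *Bambi*), were matched by symbol in GENCODE mouse release M21, and are 10 of the 55450 genes counted. The study profiled RNA from the mouse pituitary before and after maturation, with a library from each of 7 embryos and each of 2 adults. The embryos carried the *Sox2Egfp/+* genotype and were taken at e13.5, when Rathke’s pouch, the epithelial primordium of the anterior and intermediate lobes, was dissected. The adults were 8 weeks old and gave the pituitary without its posterior lobe. All animals were of a mixed 129Sv/c57BL6J background, and the labels do not state the *Sox2* genotype of the adults. Both sexes were present at each stage, but the sex of each library was not given and was not used.

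Activins are dimers of β subunits and inhibins are dimers of an α subunit with a β subunit. Activins bind a type II receptor, which recruits and phosphorylates a type I receptor, and the receptor complex then phosphorylates SMAD2 and SMAD3, which enter the nucleus with SMAD4. In the adult anterior pituitary the pathway is known for stimulating the gonadotropes to make follicle-stimulating hormone, which inhibin and follistatin oppose.

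Levels are in CPM, the counts of a gene divided by a library’s size in units of 1e6 read pairs on genes, that size having been scaled by edgeR’s TMM method. At depths of 16738863 to 28537311 read pairs on genes for the embryos, 36421545 for adult 1 and 31191117 for adult 2, 3 counts in a library, taken as the detection floor, were worth at most 0.220 CPM in an embryo and at most 0.0843 CPM in an adult, and this limit covers counting error only. Log2 fold changes are embryo over adult from edgeR’s quasi-likelihood test, with their standard error (SE) and a p-value adjusted over 19371 genes, those whose counts averaged 5 or more. A gene is called changed at an adjusted p below 0.05 and a fold change above 4, the study’s thresholds.

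A pair of libraries stood apart from the rest. Embryo 1 had 59.7% of its read pairs on genes and embryo 4 had 62.8%, while no other library had less than 73.9%. The summed level of 7 erythroid markers was 178347 CPM in embryo 1, 223579 CPM in embryo 4 and 6371 to 19819 CPM in the remaining 5 embryos. Adult 1 had 762 CPM of them and adult 2 had 1975 CPM, with *Hbb-bs* the most abundant. *Hbb-y*, an embryonic globin gene, was the most abundant gene of that list in every embryo (4334 to 128827 CPM), none of the list was at 0 in any library, and 6 of its 7 genes were called higher in the embryo. Results that rest on embryos 1 and 4 are therefore given with and without them.

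The fold changes of all genes also moved with transcript length (Spearman correlation −0.388 over genes, which are not independent replicates). Medians of length deciles, 10 groups of genes from the shortest transcripts (decile 1) to the longest (decile 10), are therefore given beside the genes below. Fold changes were also computed with transcript length and GC content corrected for in every library, which left a correlation of 0.0627 and moved the median log2 fold change of all genes from −0.04 to −0.17. With that correction 1357 genes were called higher in the embryo and 2728 higher in the adult, in place of 2182 and 2819, and 3060 genes were called both ways. Among the erythroid markers the calls fell from 6 to 2, both higher in the embryo.

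The labelled tissues were checked against marker lists. Of 7 hormone cell markers, 6 were called higher in the adult, and their summed level was 152482 CPM in adult 1, 160059 CPM in adult 2 and 870.2 to 1920 CPM in the embryos (median 1276). *Prl* was the most abundant of them in adult 1 (62124 CPM), *Gh* in adult 2 (63848 CPM) and *Cga* in every embryo (509 to 1282 CPM), while *Lhb* had no count in embryos 1, 4 and 6 and *Fshb* none in embryo 1. Of 5 progenitor markers, 1 was called higher in the embryo, the sums were 503 to 963 CPM in the embryos (median 833) and 351 and 300.3 CPM in the adults, *Pitx1* was the most abundant in all 9 libraries and none was at 0. At any fold change 3 of them had an adjusted p below 0.05 and were higher in the embryo. The 1 that was higher in the adult was *Sox2*, the gene of the embryos’ *Sox2Egfp/+* genotype (26.5 to 44.8 CPM in the embryos, 64.1 and 56.8 CPM in the adults). Its log2 fold change was −0.70 (adjusted p = 0.0282), and −1.46 (adjusted p = 9.52e-05) with the correction. The part of the genotype in its level was not tested. With the correction no progenitor marker was called by edgeR.

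The libraries also held transcripts of other cell types. Mesenchyme markers summed to 718 to 2447 CPM in the embryos (median 1766) and to 751 and 484 CPM in the adults, with 5 of 8 called higher in the embryo, and *Col3a1* (embryos) or *Col1a2* (adults) the most abundant. Endothelial markers summed to 139 to 502 CPM (median 262) against 172 and 112 CPM, with 1 of 6 called higher in the embryo, and *Pecam1*, *Cdh5* or *Emcn* (embryos) or *Plvap* (adults) the most abundant. For the hypothalamus and posterior lobe the sums were 144 to 269 CPM (median 170) against 104 and 115 CPM. In that list 3 of 7 genes were called higher in the embryo (4 with the correction) and 2 higher in the adult, *Six3*, *Rax* or *Fgf10* was the most abundant in the embryos and *Six3* in the adults, *Avp* had no count in any embryo and *Oxt* none in 6 of the 7. Macrophage markers summed to 126 to 311 CPM (median 143) against 96.6 and 149 CPM, with none of the 6 called by edgeR at a fold above 4 (2 had an adjusted p below 0.05, both higher in the embryo, but both lower with the correction, which moved the list’s median log2 fold change from 0.58 to −0.48), and *C1qb* or *Csf1r* the most abundant. No mesenchyme, endothelial or macrophage marker was at 0 in any library. The summed levels by library show the hormone markers far above the embryos in both adults, and the erythroid markers highest in embryos 1 and 4.

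**Figure D1:**
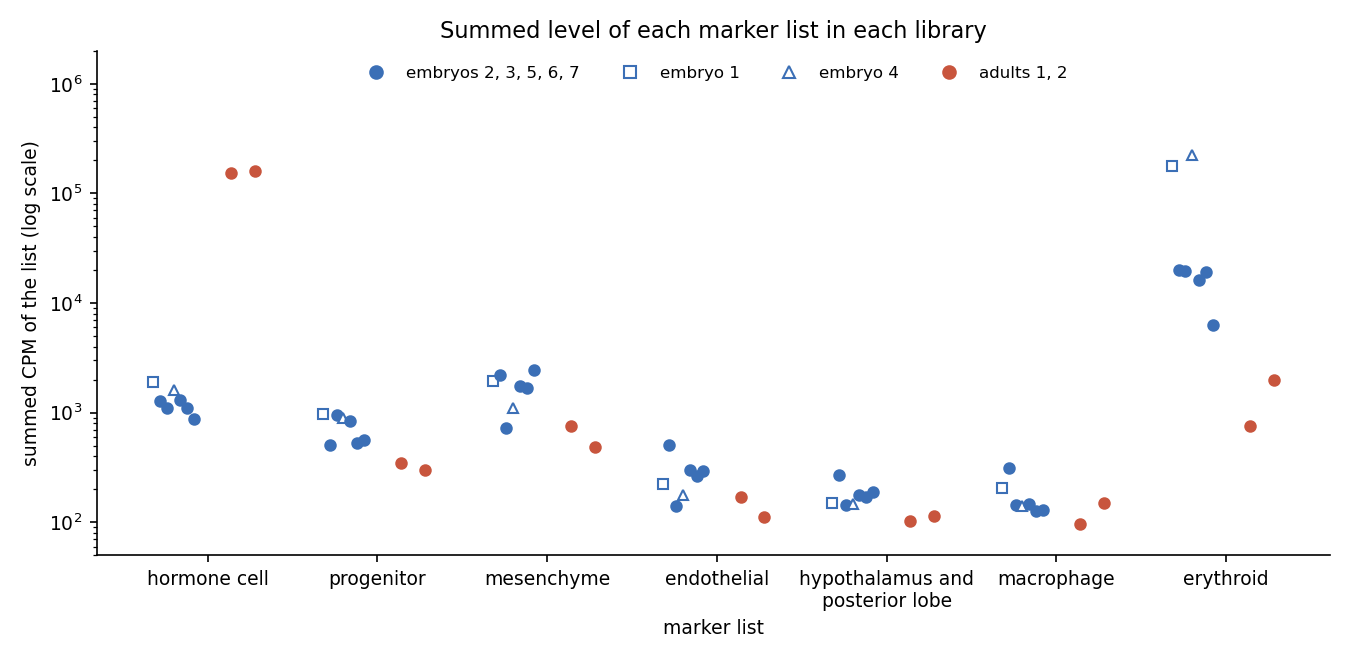
Summed CPM (log scale) of each marker list in each of the 9 libraries, with 1 point per library. Open symbols mark embryos 1 and 4, whose erythroid sums of 178347 and 223579 CPM lie above those of all other libraries. The hormone cell sums of the adults, 152482 and 160059 CPM, lie above the embryo range of 870.2 to 1920 CPM.

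In bulk RNA, fewer cells of a type and less RNA per cell cannot be told apart, and this holds for every difference between stages below. The part of these marker differences in the results for the activin, inhibin and follistatin genes was not tested.

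All 10 genes passed the filter on low counts. Of them, 1 was called higher in the embryo (*Fst*) and 3 higher in the adult (*Inhba*, *Inhbb* and *Tgfbr3*), where 11.3% and 14.6% of all genes tested were called in these directions. At an adjusted p below 0.05 and any fold change, 3 were higher in the embryo and 6 higher in the adult, beside 24.0% and 27.4% of all genes. The embryo and adult values did not overlap for 9 of the 10, as for 59.1% of all genes tested. The median log2 fold change of the 10 genes was −1.67 (−0.91 with the correction for length and GC content), and that of all genes tested was −0.04 (−0.17). The plot of single libraries shows the ligand subunits, *Fstl3*, *Acvr2a* and *Tgfbr3* higher in both adults than in any embryo, *Fst*, *Acvr2b* and *Bambi* lower, and *Acvr1b* overlapping.

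**Figure D2:**
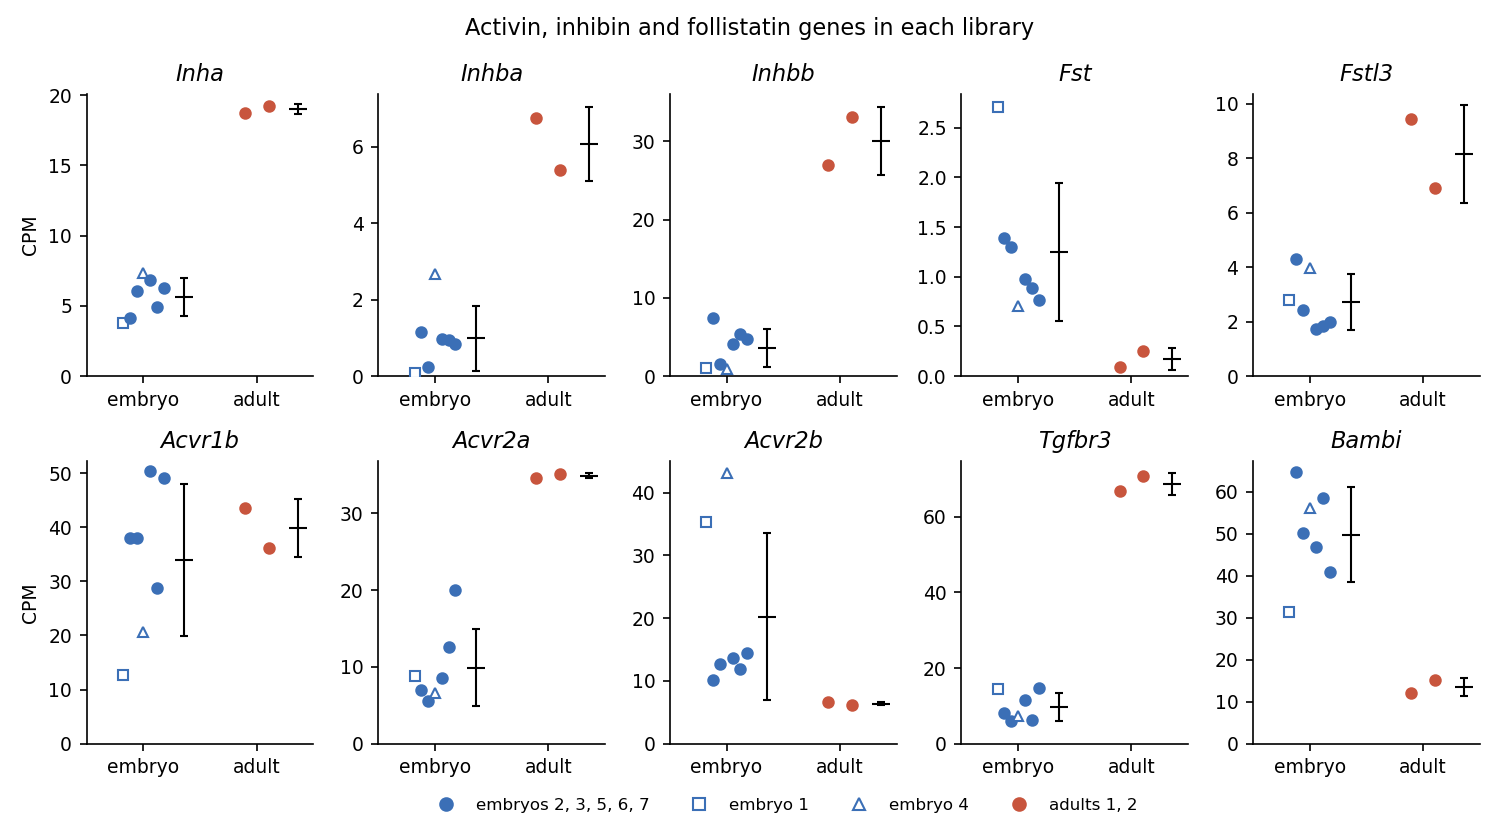
CPM of the 10 genes in each library, with 1 point per library and the mean ± SD beside each group (embryo n = 7, adult n = 2). Open symbols mark embryos 1 and 4, which have the highest *Acvr2b* values (35.4 and 43.2 CPM) and the lowest *Acvr1b* values (12.7 and 20.7 CPM).

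The promoters of 7 of the 10 genes were taken from RefSeq (GRCm38.p6), as 250 bases before to 50 bases after the annotated start. The start of *Inha* in RefSeq lies inside the annotated gene used for counting, and so does its whole window, as that gene starts at 75507077. The sequence before that position was not searched, so the search does not cover the promoter of the longer *Inha* annotation. Not matched were *Fst*, *Tgfbr3* and *Bambi*. The promoters of the 3 ligand subunit genes and of *Fstl3*, all higher in both adults than in any embryo, are shown. *Acvr2a* was also higher in both adults and was found in RefSeq, but is not shown. They lie at chr1:75507359-75507658 on the plus strand (*Inha*), chr13:16011601-16011900 on the plus strand (*Inhba*), chr1:119422199-119422498 on the minus strand (*Inhbb*) and chr10:79777024-79777323 on the plus strand (*Fstl3*), and each is written 5′ to 3′ along its gene. The 7 windows were searched on both strands for AAGGTCA (bound by NR5A1, a gonadotrope factor), TGACGT (part of the cyclic AMP response element), AGATAA (bound by factors of the GATA family), GTCTAGAC (a palindrome bound by SMAD3 and SMAD4) and TATAAA (bound by the TATA-binding protein). The sequences are in lower case, with a match in capitals.
Inha: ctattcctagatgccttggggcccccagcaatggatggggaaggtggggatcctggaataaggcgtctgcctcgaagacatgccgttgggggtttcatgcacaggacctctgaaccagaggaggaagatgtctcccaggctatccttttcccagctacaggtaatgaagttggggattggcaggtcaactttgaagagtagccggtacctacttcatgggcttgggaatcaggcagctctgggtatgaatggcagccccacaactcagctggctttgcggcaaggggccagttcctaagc
Inhba: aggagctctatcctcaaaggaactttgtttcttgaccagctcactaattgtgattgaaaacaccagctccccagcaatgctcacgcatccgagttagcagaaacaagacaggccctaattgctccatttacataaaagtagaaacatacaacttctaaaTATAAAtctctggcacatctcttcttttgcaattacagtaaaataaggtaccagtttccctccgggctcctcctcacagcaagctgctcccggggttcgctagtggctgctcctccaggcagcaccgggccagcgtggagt
Inhbb: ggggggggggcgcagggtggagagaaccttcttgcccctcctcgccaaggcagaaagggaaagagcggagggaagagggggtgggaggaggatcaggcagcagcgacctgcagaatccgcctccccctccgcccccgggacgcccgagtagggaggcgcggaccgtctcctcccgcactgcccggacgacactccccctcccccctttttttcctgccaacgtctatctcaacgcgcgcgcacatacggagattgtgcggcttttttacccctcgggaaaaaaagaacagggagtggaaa
Fstl3: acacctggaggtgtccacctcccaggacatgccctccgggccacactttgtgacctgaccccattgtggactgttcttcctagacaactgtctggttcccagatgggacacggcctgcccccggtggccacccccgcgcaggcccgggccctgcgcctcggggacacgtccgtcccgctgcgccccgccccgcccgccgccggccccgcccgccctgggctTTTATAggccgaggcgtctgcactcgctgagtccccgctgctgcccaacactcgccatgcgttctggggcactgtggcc
The matches in the 7 windows were TATAAA in *Inhba*, on the gene’s own strand with its first base at −91, and TATAAA on the opposite strand in *Fstl3*, at −29. The other 4 sets of letters were not in these 7 windows. Of all 32851 promoters of this length, 13.6% held TATAAA, 4.72% AAGGTCA, 7.51% TGACGT, 11.2% AGATAA and 0.213% GTCTAGAC. GC content was 55.3% for *Inha*, 47.7% for *Inhba*, 64.3% for *Inhbb* and 70.7% for *Fstl3*, and 73.3% to 80.3% for the 3 receptor genes *Acvr1b*, *Acvr2a* and *Acvr2b*.

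The ligand subunit genes were all higher in the adult. *Inha* (ENSMUSG00000032968, chromosome 1, 75507077 to 75510366 in GRCm38) encodes the inhibin α subunit. It stood at 3.81 CPM in the lowest embryo, 6.05 in the median and 7.34 in the highest, and at 18.7 and 19.2 CPM in adults 1 and 2. The embryos lay within a narrow band, and every embryo was below both adults. The means were 5.63 ± 1.35 CPM (SD, n = 7) and 19.0 ± 0.346 CPM (SD, n = 2), with a log2 fold change of −1.75 (SE 0.32, adjusted p = 0.000485), short of the threshold on fold change. With the correction for length and GC content it was −2.79 (SE 0.34, adjusted p = 5.18e-05), which passed the threshold. Genes with transcripts about as short as its own (1475 bp, decile 2) moved the other way, with a median log2 fold change of 0.98. Over 22 alternative settings the value ran from −2.79 to −1.63 and the adjusted p from 1.15e-06 to 1, where the highest came from testing whether the fold change exceeds 4. It was also called in the 4 libraries of replicates 1 and 2 alone (−2.21, adjusted p = 0.0104).

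*Inhba* (ENSMUSG00000041324, chromosome 13, 16011851 to 16031621) encodes the βA subunit of activin A and inhibin A. It was at 0.0733 CPM in embryo 1, the lowest, 0.941 CPM in the median embryo and 2.68 CPM in embryo 4, the highest, and at 6.76 and 5.40 CPM in the adults. In embryo 1 this was a single read pair, below the detection floor, and all 7 embryos were below both adults. The log2 fold change was −2.63 (SE 0.71, adjusted p = 0.00691), from means of 0.986 ± 0.847 CPM (SD, n = 7) and 6.08 ± 0.966 CPM (SD, n = 2). Its transcript is long (6390 bp, decile 10), and the median log2 fold change in that decile was −1.39. With the correction for length and GC content the value was −1.24 (SE 0.74, adjusted p = 0.185) and the call was lost. The call was also lost without adult 1 (log2 fold change −2.47, adjusted p = 0.0619), where the lone adult was assumed to vary like the embryos, in the test against a fold change of 4 (adjusted p = 0.394) and in replicates 1 and 2 alone (−3.17, adjusted p = 0.0736), though not there with a block on the replicate number (−3.70, adjusted p = 0.00631). Both together, the correction and the omission of embryos 1 and 4, gave −1.41 (adjusted p = 0.0208), short of the threshold on fold change. Without embryos 1 and 4 it was −2.84 (adjusted p = 0.000352), and over all 21 alternatives that kept the gene the adjusted p ran from 0.000352 to 0.394.

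*Inhbb* (ENSMUSG00000037035, chromosome 1, 119415465 to 119422248) encodes the βB subunit of activin B and inhibin B. The lowest embryo had 0.917 CPM, the median 4.13 and the highest 7.43, and the adults had 27.0 and 33.2 CPM. Embryos 4, 1 and 3 were the lowest, and every embryo was below both adults. Its transcript of 4255 bp lies in length decile 8, whose median log2 fold change was −0.51. The means were 3.60 ± 2.48 CPM (SD, n = 7) and 30.1 ± 4.34 CPM (SD, n = 2), and the log2 fold change was −3.04 (SE 0.56, adjusted p = 0.000525). It was −2.85 (adjusted p = 0.00198) with the correction for length and GC content, was −2.68 (adjusted p = 0.000221) without embryos 1 and 4, and it ended as a call in the test against a fold change of 4 (adjusted p = 0.117) and in replicates 1 and 2 alone (−2.745, adjusted p = 0.0590), though not with a block on the replicate number (−3.22, adjusted p = 4.52e-05). The adjusted p over 22 alternatives ran from 3.00e-07 to 0.117. The 3 subunit genes had a median log2 fold change of −2.63, and all genes tested one of −0.04.

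The follistatin genes differed in direction. *Fst* (ENSMUSG00000021765, chromosome 13, 114452290 to 114458951) encodes follistatin, a secreted protein that binds activin and keeps it from its receptors. Its level was 0.706 CPM in the lowest embryo, 0.979 in the median and 2.71 in the highest, and 0.0970 and 0.253 CPM in adults 1 and 2. These are few read pairs, 10 to 41 in an embryo, 4 in adult 1 and 9 in adult 2. Embryo 1 was the highest, at 2.71 CPM, and all 7 embryos were above both adults. The median log2 fold change in its length decile, 5, was 0.11. Its log2 fold change was 2.80 (SE 0.87, adjusted p = 0.0153), from means of 1.25 ± 0.693 CPM (SD, n = 7) and 0.175 ± 0.110 CPM (SD, n = 2). The correction for length and GC content left it at 2.94 (adjusted p = 0.0143), and without embryos 1 and 4 it was 2.62 (adjusted p = 0.00530). The call rested on both adults: it was lost without adult 1 (2.25, adjusted p = 0.160) and without adult 2 (3.60, adjusted p = 0.0550), with the remaining adult assumed to vary like the embryos, as well as in the test against a fold change of 4 (adjusted p = 0.317). In replicates 1 and 2 alone it was 3.57 (adjusted p = 0.0440), and with a block on the replicate number there the call was lost (3.59, adjusted p = 0.0790). Over the 21 alternatives that kept the gene the adjusted p ran from 0.00140 to 0.317.

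*Fstl3* (ENSMUSG00000020325, chromosome 10, 79777272 to 79782630) encodes a follistatin-like protein that also binds activin. It had 1.74 CPM in the lowest embryo, 2.44 in the median and 4.29 in the highest, and 9.43 and 6.89 CPM in the adults. Embryos 2 and 4 were the highest of their stage, and still below both adults. The log2 fold change was −1.59 (SE 0.43, adjusted p = 0.00661), short of the threshold on fold change, from means of 2.72 ± 1.03 CPM (SD, n = 7) and 8.16 ± 1.80 CPM (SD, n = 2). Corrected for length and GC content it was −2.49 (SE 0.35, adjusted p = 0.000152) and passed the threshold. Its transcript is short (1955 bp), and its decile of length, 3, had a median log2 fold change of 0.52. *Prss57* overlaps it on the opposite strand, and unstranded counts held only 6 to 22 read pairs in an embryo and 94 and 50 in the adults. The strand-specific counts used here were 37 to 127 in an embryo and 389 and 245 in the adults. The difference did not pass the test without adult 1 (−1.36, adjusted p = 0.102, the lone adult assumed to vary like the embryos) or in replicates 1 and 2 alone (−1.16, adjusted p = 0.108, and 0.190 with a block on the replicate number). Over 22 alternatives the adjusted p ran from 0.000131 to 1, the highest from testing whether the fold change exceeds 4.

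Of the 3 receptor genes none was called with edgeR at a fold change above 4, and 2 had an adjusted p below 0.05 in opposite directions. *Acvr1b* (ENSMUSG00000000532, chromosome 15, 101174067 to 101213684) encodes the type I receptor ALK4. It ranged from 12.7 CPM in embryo 1 through a median of 38.0 to 50.4 CPM in the highest embryo, beside 43.7 and 36.2 CPM in the adults. The stages overlapped, with 2 embryos above both adults and 3 below both. Length decile 8, which holds its transcript of 4418 bp, had a median log2 fold change of −0.51. The log2 fold change was −0.23 (SE 0.41, adjusted p = 0.657), and its sign turned without embryos 1 and 4, the lowest of the embryos, to 0.06 (SE 0.28, adjusted p = 0.856). In all 22 alternatives the adjusted p was between 0.182 and 1.

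*Acvr2a* (ENSMUSG00000052155, chromosome 2, 48814109 to 48903269) encodes a type II receptor of activin. It had 5.52 CPM in the lowest embryo, 8.59 in the median and 20.1 in the highest, embryo 7, and 34.7 and 35.2 CPM in the adults. The adults differed little, and every embryo was below both. Its log2 fold change was −1.82 (SE 0.39, adjusted p = 0.00152), from means of 9.88 ± 5.03 CPM (SD, n = 7) and 34.9 ± 0.375 CPM (SD, n = 2), and without embryo 7 it reached the threshold at −2.09 (adjusted p = 0.000141). After the correction for length and GC content it was −0.59 (SE 0.28, adjusted p = 0.103), so the difference did not pass the test. Its transcript of 5686 bp lies in length decile 9, whose median log2 fold change was −0.85. Over 22 alternatives the adjusted p ran from 0.000103 to 1, the highest from testing whether the fold change exceeds 4. *Orc4* overlaps it on the opposite strand. Of the read pairs at *Acvr2a*, 23.1% in embryo 1, 17.7% in embryo 4, 2.35% to 6.62% in the other 5 embryos, 9.44% in adult 1 and 9.86% in adult 2 were counted on that strand, and these are not in the values given.

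*Acvr2b* (ENSMUSG00000061393, chromosome 9, 119402118 to 119434995) encodes the other type II receptor. Its levels were 10.2 CPM in the lowest embryo, 13.6 in the median and 43.2 in the highest, and 6.57 and 6.19 CPM in the adults. Embryos 1 and 4, at 35.4 and 43.2 CPM, lay far above the other 5 embryos (10.2 to 14.5 CPM), and all 7 were above both adults. The log2 fold change was 1.66 (SE 0.58, adjusted p = 0.0271), in length decile 6 with a median of −0.01. Without embryos 1 and 4 it was 1.01 (SE 0.32, adjusted p = 0.0172), with an embryo mean of 12.6 ± 1.67 CPM (SD, n = 5). With the correction for length and GC content it was 1.34 (SE 0.65, adjusted p = 0.106), and with both changes together 0.58 (adjusted p = 0.112), so that the difference did not pass the test there. Nor did it without adult 1 (1.68, adjusted p = 0.125) or without adult 2 (1.60, adjusted p = 0.143), the lone adult assumed to vary like the embryos, or in replicates 1 and 2 alone (1.88, adjusted p = 0.0740), but it did there with a block on the replicate number (1.62, adjusted p = 0.0168). The adjusted p ran from 0.00485 to 1 over 22 alternatives, the highest from testing whether the fold change exceeds 4. The erythroid markers were also highest in these 2 embryos (178347 and 223579 CPM), and their part in the level of *Acvr2b* was not tested.

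*Tgfbr3* (ENSMUSG00000029287, chromosome 5, 107106570 to 107289629) encodes betaglycan, a co-receptor that raises the affinity of inhibin for the type II receptors. It had 5.93 CPM in the lowest embryo, 8.01 in the median and 14.6 in the highest, and 66.7 and 70.7 CPM in the adults. The gap between the stages was wider than the whole range of the embryos, and every embryo was below both adults. The means were 9.75 ± 3.74 CPM (SD, n = 7) and 68.7 ± 2.80 CPM (SD, n = 2), with a log2 fold change of −2.82 (SE 0.33, adjusted p = 1.40e-05). It was called in all 22 alternatives, in which the log2 fold change ran from −3.01 to −2.05 and the adjusted p from 8.91e-12 to 0.0481. The smallest fold change, −2.05 (adjusted p = 0.000145), came with the correction for length and GC content, in a gene of length decile 9 (median log2 fold change −0.85).

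*Bambi* (ENSMUSG00000024232, chromosome 18, 3507923 to 3516404) encodes a membrane protein that resembles a type I receptor but lacks the kinase domain, and acts as a decoy. Levels were 31.4 CPM in the lowest embryo, 50.3 in the median and 64.7 in the highest, and 12.1 and 15.1 CPM in the adults. Embryo 1 was the lowest, and all 7 embryos were above both adults. The log2 fold change was 1.88 (SE 0.33, adjusted p = 0.000350), short of the threshold on fold change, from means of 49.8 ± 11.3 CPM (SD, n = 7) and 13.6 ± 2.12 CPM (SD, n = 2). It passed the threshold with length and GC content corrected for (2.82, adjusted p = 0.000101), without embryo 1 (2.01, adjusted p = 9.08e-05) and without adult 2 (2.03, adjusted p = 0.00712, the lone adult assumed to vary like the embryos). Its transcript is long (5074 bp), in length decile 9, which had a median log2 fold change of −0.85. Over 22 alternatives the adjusted p ran from 1.84e-08 to 1. The highest came from testing whether the fold change exceeds 4, the only alternative in which it was not below 0.05.

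With the correction for length and GC content, 6 of the 10 genes were called (2 higher in the embryo and 4 higher in the adult, beside 7.01% and 14.1% of all genes tested), 3 of them (*Inhbb*, *Fst* and *Tgfbr3*) among the 4 called without it. The fold changes side by side show *Inha*, *Fstl3* and *Bambi* moving past the threshold and *Inhba* and *Acvr2a* moving towards 0. No gene but *Acvr1b* changed sign in any alternative.

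**Figure D3:**
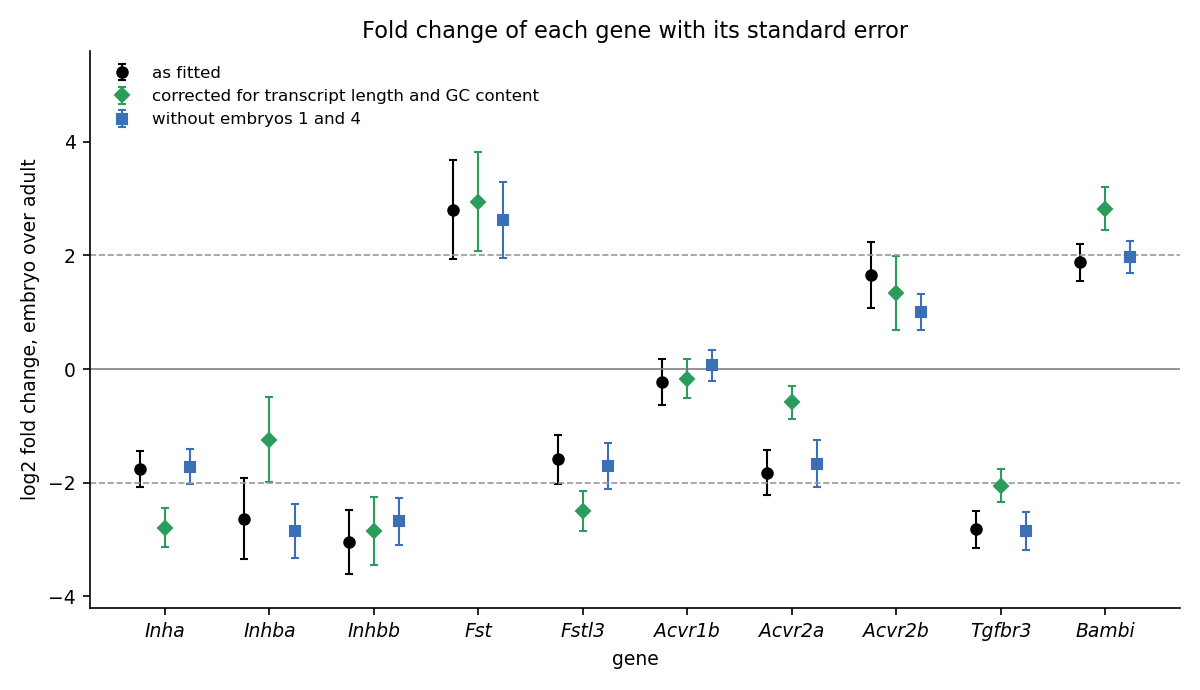
Log2 fold change (embryo over adult) of the 10 genes with its standard error, as fitted, with transcript length and GC content corrected for, and without embryos 1 and 4. Dashed lines mark a fold change of 4. *Inhba* moved from −2.63 to −1.24 with the correction, and *Acvr2b* from 1.66 to 1.01 without embryos 1 and 4.

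Levels of different genes were compared per length, as CPM per kb of the longest transcript. In the embryo the order of means was *Bambi* (9.82 ± 2.22 CPM per kb, SD, n = 7), *Acvr1b* (7.69 ± 3.18), *Acvr2b* (6.36 ± 4.19), *Inha* (3.82 ± 0.915), *Acvr2a* (1.74 ± 0.885), *Tgfbr3* (1.60 ± 0.614), *Fstl3* (1.39 ± 0.526), *Inhbb* (0.847 ± 0.584), *Fst* (0.427 ± 0.237) and *Inhba* (0.154 ± 0.133). Only the step from *Inha* to *Acvr2a* was larger than the SD of the difference within libraries (2.08 against 1.25 CPM per kb), and *Inha* was the higher in all 7 embryos. In all 7 embryos no other neighbours differed beyond that spread, and this rested on embryos 1 and 4. Without them the order was the same, but the step from *Acvr1b* to *Acvr2b* was 5.30 against an SD of 1.70 CPM per kb (5 of 5 embryos), while that from *Acvr2b* to *Inha* was 0.124 against 0.338. The steps from *Inha* to *Acvr2a* (1.94 against 1.13), *Inhbb* to *Fst* (0.726 against 0.507) and *Fst* to *Inhba* (0.235 against 0.114) were then also larger than the SD.

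In the adult the order was *Inha* (12.9 ± 0.235 CPM per kb, SD, n = 2), *Tgfbr3* (11.3 ± 0.460), *Acvr1b* (9.03 ± 1.20), *Inhbb* (7.07 ± 1.02), *Acvr2a* (6.14 ± 0.0660), *Fstl3* (4.17 ± 0.920), *Bambi* (2.67 ± 0.418), *Acvr2b* (2.01 ± 0.0857), *Inhba* (0.952 ± 0.151) and *Fst* (0.0599 ± 0.0378). The neighbours *Acvr1b* and *Inhbb*, and *Inhbb* and *Acvr2a*, did not differ beyond the SD of their difference within libraries. *Bambi*, first in the embryo, was seventh in the adult, and *Inha* and *Tgfbr3* were first and second there. *Inhbb* was above *Inhba* per kb in both adults and on average in the embryos.

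**Figure D4:**
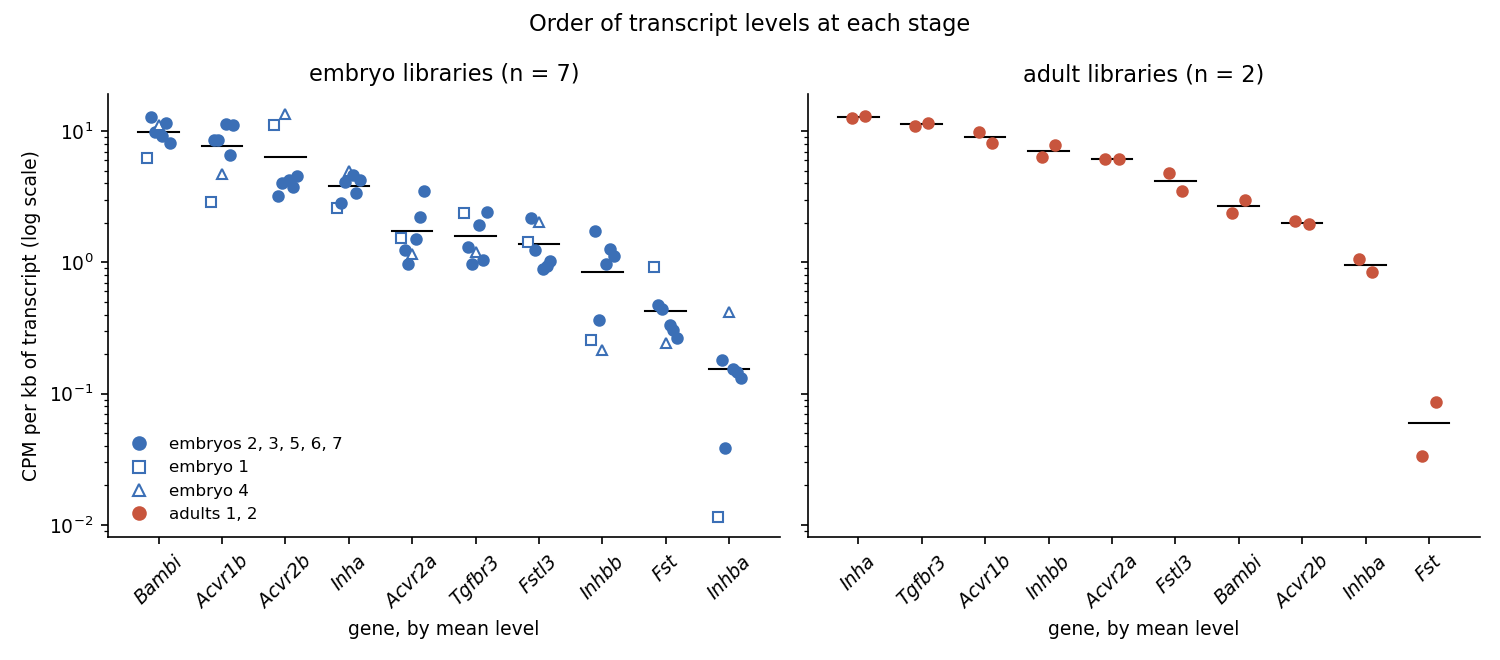
CPM per kb of transcript (log scale) of the 10 genes, ordered by their mean at each stage. Points are single libraries (7 embryos, 2 adults) and bars are means, from 9.82 (*Bambi*) to 0.154 (*Inhba*) CPM per kb in the embryo and from 12.9 (*Inha*) to 0.0599 (*Fst*) in the adult.

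Ratios within a library do not depend on how libraries are scaled, and 4 were computed from counts per kb with 0.5 counts added. They were compared by exact two-sided permutation tests over all 36 ways to choose 2 of the 9 libraries, for which the smallest possible p is 0.0278, and p-values were adjusted over the 4 ratios. None passed 0.05 after adjustment, where a single ratio at the smallest p cannot come below 0.111 unless other ratios are also low.

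*Acvr2b* over *Acvr2a*, the balance of the type II receptors, was 1.30 in the lowest embryo, 2.83 in the median and 11.7 in the highest, and 0.340 and 0.315 in adults 1 and 2. *Acvr2b* thus exceeded *Acvr2a* per kb in every embryo and was below it in both adults. The mean log2 ratio was 1.78 ± 1.13 (SD, n = 7) in the embryo and −1.61 ± 0.08 (SD, n = 2) in the adult, a difference of 3.39 (exact permutation p = 0.0278, adjusted p = 0.111). Without embryos 1 and 4 the difference was 2.82 (exact permutation p = 0.0476, adjusted p = 0.190), and with the correction for length and GC content it was 1.69 (exact permutation p = 0.0556, adjusted p = 0.222). Adjusted p-values ran from 0.0714 to 0.5 over 15 alternatives.

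*Inha* over the sum of *Inhba* and *Inhbb*, the α subunit relative to both β subunits, was 1.46 in the lowest embryo, 4.12 in the median and 10.1 in the highest, and 1.71 and 1.51 in the adults. Embryo 2 alone lay below both adults, and the other 6 lay above. The log2 difference was 1.47 (exact permutation p = 0.167, adjusted p = 0.222), and it fell to 0.08 (adjusted p = 0.944) with the correction for length and GC content. It was 1.74 (adjusted p = 0.0714) without embryo 2. *Fst* plus *Fstl3* over the β subunits was 0.894 in the lowest embryo, 1.39 in the median and 8.39 in the highest, and 0.656 and 0.419 in the adults. Every embryo was above both adults, with a log2 difference of 1.99 (exact permutation p = 0.0833, adjusted p = 0.167). The difference was 0.89 (adjusted p = 0.556) with the correction, 1.44 (adjusted p = 0.190) without embryos 1 and 4, and 2.64 (adjusted p = 0.167) with unstranded counts. Unstranded counts held far fewer *Fstl3* read pairs than the strand-specific counts in every library. Over the alternatives, adjusted p ran from 0.0714 to 0.944 for the α over β ratio and from 0.143 to 0.556 for the binding proteins.

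*Inhba* over *Inhbb* was 0.0644 in the lowest embryo, 0.119 in the median and 1.90 in the highest, and 0.167 and 0.109 in the adults. βB transcripts exceeded βA in all libraries except that of embryo 4. The log2 difference was 0.29 (exact permutation p = 0.833). It turned to −0.30 without embryo 4, to −0.15 without embryos 1 and 4 and to −0.02 without adult 2, and was 1.52 with the correction for length and GC content, with adjusted p from 0.429 to 1 over all alternatives.

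**Figure D5:**
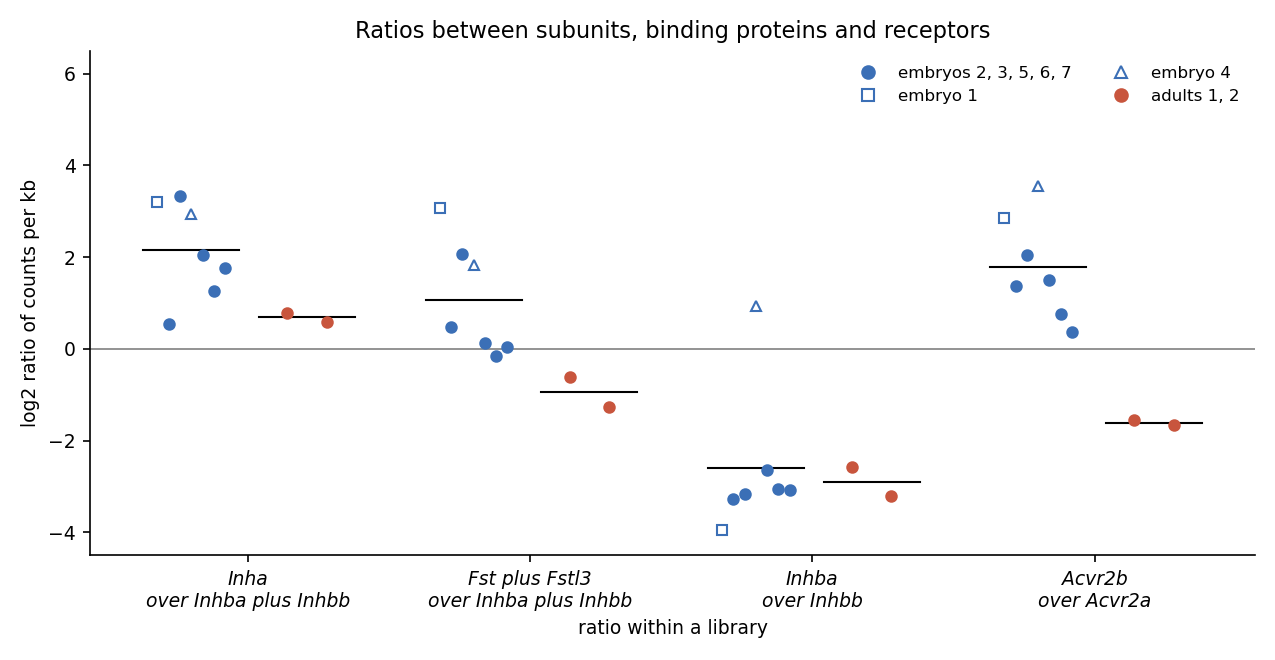
Log2 ratios of counts per kb within each library, with 1 point per library and bars at the group means (embryo n = 7, adult n = 2). *Acvr2b* over *Acvr2a* averaged 1.78 in the embryo and −1.61 in the adult, and embryo 4 stands alone in *Inhba* over *Inhbb* at 0.93.

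The other genes of the pathway were taken from 4 lists with 39 genes, of which 31 passed the filter on low counts. Of these, 3 were called higher in the embryo and 4 higher in the adult, beside 11.3% and 14.6% of all genes tested. With the correction for length and GC content the calls were 3 and 5, beside 7.01% and 14.1%. At any fold change 8 and 9 had an adjusted p below 0.05, beside 24.0% and 27.4% of all genes, and the median log2 fold change was −0.51 (−0.10 with the correction for length and GC content), beside −0.04 (−0.17) for all genes tested. Among 9 other ligands of these receptors 3 were tested, 1 was called higher in the embryo and none by edgeR higher in the adult (1 in each direction with the correction), and the median log2 fold change was 0.88. *Mstn*, which encodes myostatin, was at 0.0676 CPM in the lowest embryo, 0.988 in the median and 2.60 in the highest, and at 0.0485 and 0.112 CPM in the adults. The adult values are 2 and 4 read pairs, of which the first is below the detection floor. Its log2 fold change was 3.79 (SE 1.23, adjusted p = 0.0194), with 1 embryo below adult 2. The call was lost without adult 1 (3.29, adjusted p = 0.149), without adult 2 (4.43, adjusted p = 0.0833) and in the test against a fold change of 4 (adjusted p = 0.184), with adjusted p down to 0.00167 in the other alternatives.

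Among 9 other receptors and co-receptors 8 were tested, 2 were called higher in the adult (also 2 with the correction, of which 1 was shared) and none by edgeR higher in the embryo (1 had an adjusted p below 0.05), and the median log2 fold change was −0.81. *Acvr1c*, which encodes the type I receptor ALK7, had 0.149 to 2.12 CPM in the embryos (median 0.866) and 7.66 and 8.15 CPM in the adults. Its log2 fold change was −3.21 (SE 0.65, adjusted p = 0.00104), but its transcript is 9162 bp long, and with the correction for length and GC content it was −1.28 (adjusted p = 0.150) and not called. The call was also lost in replicates 1 and 2 alone (adjusted p = 0.0803, but 0.00570 with the block) and in the test against a fold change of 4 (adjusted p = 0.114), over a range of 2.19e-05 to 0.150. *Tgfbr3l*, a relative of betaglycan, had up to 0.580 CPM in the embryos (median 0.385, no count in embryos 1 and 4) and 5.12 and 2.95 CPM in the adults. Its log2 fold change was −3.64 (SE 0.81, adjusted p = 0.00199), and −4.26 (adjusted p = 0.00104) with the correction. That call was lost in the test against a fold change of 4 (adjusted p = 0.0877) and in replicates 1 and 2 alone (adjusted p = 0.0649, but 0.0113 with the block), over a range of 5.54e-05 to 0.0877. Like *Tgfbr3*, it was higher in both adults than in any embryo.

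Of 7 other binding proteins and convertases, 1 was called higher in the embryo and 2 higher in the adult, with a median log2 fold change of −0.76. *Fstl1*, a secreted relative of follistatin, had 309 to 959 CPM in the embryos (median 515) and 80.8 and 65.0 CPM in the adults, with a log2 fold change of 2.89 (SE 0.45, adjusted p = 0.000144). Only the test against a fold change of 4 ended that call (adjusted p = 0.0502, in a range down to 2.29e-12). *Fstl5*, another relative, had 0 to 0.995 CPM (median 0.580) and 7.20 and 8.66 CPM, with a log2 fold change of −3.85 (SE 0.83, adjusted p = 0.00165) that was −2.81 (adjusted p = 0.0144) with the correction. It was not called in the test against a fold change of 4 (adjusted p = 0.0648) or in replicates 1 and 2 alone (adjusted p = 0.0676, but 0.000733 with the block), over a range of 8.39e-06 to 0.0676. *Pcsk6*, a convertase that cleaves precursors of this ligand family, had 1.90 to 14.3 CPM (median 7.48) and 223 and 80.1 CPM. The adults differed from each other, and the log2 fold change of −4.25 (SE 0.49, adjusted p = 1.38e-05) was −3.35 (adjusted p = 0.000709) without adult 1, with adjusted p up to 0.0371 in the alternatives. Of 8 mesenchyme markers 5 were also called higher in the embryo (sums of 718 to 2447 CPM against 751 and 484 CPM, with embryo 3 below adult 1), and their part in the *Fstl1* difference was not tested.

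Of 14 intracellular transducers and feedback genes, 13 were tested, 1 was called higher in the embryo and none by edgeR higher in the adult (2 had an adjusted p below 0.05), and the median log2 fold change was −0.44 (0.19 with the correction). *Smad2* stood at 27.9 to 53.1 CPM in the embryos (median 36.9) and at 56.6 and 48.2 CPM in the adults, with a log2 fold change of −0.44 (SE 0.27, adjusted p = 0.179) that turned to 1.02 (adjusted p = 0.00625, in a range of 0.000506 to 1) with the correction. For *Smad3* the levels were 50.7 to 89.1 CPM (median 59.9) and 62.9 and 57.9 CPM, with a log2 fold change of 0.15 (SE 0.29, adjusted p = 0.691) whose sign turned with library size alone as the scaling. *Smad4*, at 43.4 to 75.1 CPM (median 57.2) and 92.6 and 85.5 CPM, had a log2 fold change of −0.60 (SE 0.24, adjusted p = 0.0492), which did not pass the test in 15 of 22 alternatives, among them each adult left out (adjusted p from 0.00569 to 1 over all). None of these 3 genes was called in the 22 alternatives that kept the threshold on fold change. The called gene, *Tgif2*, encodes a repressor of SMAD-dependent transcription and had 57.3 to 102 CPM (median 68.6) and 7.59 and 5.37 CPM, with a log2 fold change of 3.50 (SE 0.36, adjusted p = 5.48e-06), which was 2.45 with unstranded counts (adjusted p = 0.000857). Its adjusted p ran from 2.02e-28 to 0.00683 over 22 alternatives.

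Of 9 genes known from gonadotropes, 6 were called higher in the adult (14.6% of all genes tested were) and none by edgeR higher in the embryo at any fold, and their median log2 fold change was −3.04 (all genes tested −0.04). *Fshb*, whose transcription activin stimulates in these cells, had at most 1.09 CPM in the embryos (median 0.792) and 1362 and 377 CPM in the adults. The *Fshb* log2 fold change of −10.37 (adjusted p = 4.57e-08) was −9.19 without adult 1 (the lone adult assumed to vary like the embryos) and −12.21 in replicates 1 and 2 alone. *Lhb* had at most 0.217 CPM (0 to 6 read pairs) in an embryo, 446 CPM in adult 1 and 219.5 CPM in adult 2, with a log2 fold change of −11.68 (adjusted p = 3.33e-09) that was −13.38 with the correction. For *Cga*, at 509 to 1282 CPM against 7837 and 3845 CPM, it was −2.76 (adjusted p = 2.11e-05), and −4.23 with the correction. The test against a fold change of 4 ended the *Cga* call (adjusted p = 0.0698, in a range down to 1.46e-12).

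*Gnrhr*, the receptor gene for gonadotropin-releasing hormone, had at most 0.193 CPM (0 to 6 read pairs) in an embryo, 117 CPM in adult 1 and 58.0 CPM in adult 2. This gave a log2 fold change of −10.27 (adjusted p = 1.35e-08), and of −11.00 without embryo 7. *Nr5a1* had 0.842 to 3.61 CPM in the embryos and 51.6 and 50.8 CPM in the adults (log2 fold change −4.38, adjusted p = 1.11e-06). *Egr1* varied among the embryos, from 5.23 to 59.6 CPM (median 10.7), and stood at 236 and 160.2 CPM in the adults. Its log2 fold change of −3.04 (SE 0.67, adjusted p = 0.00195) was −2.30 in replicates 1 and 2 alone, and the test against a fold change of 4 ended the call (adjusted p = 0.181, in a range down to 1.64e-07). All 6 genes were lower in every embryo than in both adults, and *Fshb*, *Lhb* and *Cga* are also in the hormone cell list given above.

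The genes whose pattern over the 9 libraries was most like that of a member, by the root mean square difference of centred log2 CPM, were found among the 14078 genes that averaged 50 counts or more. *Acvr2a* had the closest neighbours, *Il13ra1* (0.12), *Zbtb6* (0.14) and *Cul4b* (0.16). *Bambi* was nearest to *Prpf31* (0.16), *Rpl7l1* (0.18) and *Rgs19* (0.19), *Acvr1b* to *Nol10* (0.16), *Eif4g1* (0.17) and *Slc25a30* (0.17), and *Tgfbr3* to *Igsf9b* (0.16), *Usp31* (0.21) and *E430024I08Rik* (0.22). *Inha* was nearest to *Tmem135* (0.17), *Ankrd24* (0.18) and *Cpox* (0.20). The neighbours of *Inhba* were farther away, with *Disp3* (0.34), *Gadd45a* (0.36) and *Zfp54* (0.38), as were those of *Inhbb*, with *Car10* (0.27), *Kcnn3* (0.34) and *Grik2* (0.37). *Fstl3* was nearest to *Hdac11* (0.24), *Gm4419* (0.25) and *Reep5* (0.27), and *Acvr2b* to *Baz1a* (0.23), *Nudt4* (0.26) and *Npas3* (0.28). *Fst* was below the count limit and was not compared. No member was among the 3 nearest genes of another.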

How the data were processed

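From directional libraries, the authors trimmed reads with Trimmomatic 0.39, aligned them with STAR 2.7.5b to mm10 and deposited STAR’s raw count of read pairs per gene, unstranded and for each strand, for 55450 genes of Ensembl release 96. The strand-specific count of each library was used, and all 55450 identifiers were matched to GENCODE M21 (GRCm38), which gave symbols, positions and transcript lengths. The 9 libraries come from different animals, and groups are those of the labels.

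Counts were scaled by TMM and fitted with edgeR 4.0.16 in R 4.3.3 (quasi-likelihood F-test, stage as the only term) where the mean count of a gene was 5 or more, with Benjamini–Hochberg adjustment. All adjusted p-values of single genes are from this test unless another is named. The study used DESeq2, which was an alternative here (1.42.0). The code was tested on simulated counts with known changes. Python 3.11.15 was used for ratios and patterns (numpy 2.4.6; pandas 2.3.3; scipy 1.17.1) and figures (matplotlib 3.10.9). The floor of 3 counts covers counting error only. The p-values measure the spread between animals, and with 2 adults the adult spread rests on a single difference. The paper gives these adults as a male and a female, so that difference cannot be told apart from sex.

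Depth was 16738863 to 28537311 read pairs on genes for embryos, 36421545 for adult 1 and 31191117 for adult 2. Genes named are the 10 members, the other pathway and gonadotrope genes that were called, *Smad2*, *Smad3* and *Smad4* in any case, the most abundant gene of each marker list, and the 3 genes nearest in pattern. *Avp*, *Oxt*, *Orc4*, *Sox2* and *Prss57* were named after their values were seen. The members and lists were chosen with earlier results of these data known. A gene first placed in the progenitor list is not reported here, and the values of that list were computed without it.

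Alternatives were the Wald test of DESeq2, scaling by the size factors of DESeq2 or by library size, 3 other filters on low counts, the unstranded count, fold thresholds of 2, none, or a test against 4, correcting for transcript length and GC (splines of 4 degrees of freedom, from genes averaging 50 counts or more), a replicate block, and leaving out each library or both embryos 1 and 4. For ratios they were 1 count added and counts not divided by length. Chosen after seeing the data were the correction without embryos 1 and 4, the libraries of the block fitted without it, lengths from the union of exons, the order and spread of levels without embryos 1 and 4, and all settings for genes outside the 10.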

Additional observations from a re-analysis of the deposited data

Results flagged for a closer look

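Within the 7 embryos, the highest or lowest library of each of the 10 genes and 4 ratios was compared with its nearest neighbour, and 3 of the 14 stood apart by a gap that is large beside the whole range of the group (Dixon’s criterion). For normally distributed values, chance gives such a gap in about 1 in 20 groups. The CPM values, some of them from few read pairs, were not shown to be so distributed, and the 14 sets of values share the same 7 libraries.

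*Inhba* in embryo 4 was at 2.68 CPM, where the next highest embryo was at 1.15 CPM and both adults were higher, at 6.76 and 5.40 CPM. *Fst* in embryo 1 was at 2.71 CPM, with the next embryo at 1.39 CPM. The log2 ratio of *Inhba* over *Inhbb* in embryo 4 was 0.93, with the next embryo at −2.64, so that this library alone had more βA than βB transcript per kb. Each of the 3 values came from embryo 1 or embryo 4, the libraries with the lowest shares of read pairs on genes and the highest erythroid marker sums, whose part in these values was not tested.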

How the results depend on the processing

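Of the alternative values for the log2 fold changes of the 10 genes, 192 kept their direction and their side of the threshold, 11 lost the call, 13 gained one and 2 changed sign. The sign changes were those of *Acvr1b*, to 0.0645 without embryos 1 and 4 and 0.0738 with the correction for length and GC content as well. For other named genes, 14 values lost the call and 5 changed sign: *Smad2* to 1.02 with the correction and 1.17 with it and without embryos 1 and 4, and *Smad3* to −0.0346 with library size alone, −0.0518 in the replicate block and −0.0509 in the same 4 libraries without a block. The cause was not tested. Calls among all genes numbered 5001, and 2634 with at least 10 counts in every library (13491 genes tested), 1744 in the test against a fold change of 4, 8960 at a threshold of 2, 9948 with no threshold, and 3683 to 5290 with 1 library left out. Calls among the 10 genes were 4, and 2, 1, 9 and 9 in the same settings, and 2 to 5 with 1 library left out, where *Inhba* and *Fst* were not tested at 10 counts in every library. For the other pathway genes the 7 calls became 4, 2, 12 and 17, 7 to 9 with 1 library left out, and 4 in the 4 libraries of the block without it. The ratio of *Inhba* over *Inhbb* reversed to −0.15 without embryos 1 and 4, and ran from −0.30 to 0.60 with 1 library left out. No other ratio changed direction. The median log2 fold change of all genes was −0.04, −0.26 with library size alone, −0.25 in the replicate block and −0.17 with the correction.

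Replicate numbers mark different animals, and the labels give no pairing of them. The deviations of same-numbered libraries correlated at 0.0331 for replicate 1 and 0.000313 for replicate 2. With 2 adults centred on their mean, the deviations of the one mirror those of the other, so these values cannot decide whether libraries are paired. The replicate block on replicates 1 and 2 called 4151 genes (3975 in these 4 libraries without it) and 5 of the 10 genes, *Inha*, *Inhba*, *Inhbb*, *Acvr2a* and *Tgfbr3*, and not *Fst* (log2 fold change 3.59). With 1 adult left out, the lone adult is assumed to vary like the embryos.

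Low counts limit *Fst* (4 and 9 read pairs in the adults), *Mstn* (2 and 4), *Inhba* (1 to 38 in the embryos) and the size of the fold changes of *Lhb* and *Gnrhr* (0 to 6 in the embryos). Transcript length and stage cannot be told apart in these libraries beyond the correction given, and sex was not used.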

Other observations

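Summed over the libraries of a stage, read pairs on the opposite strand of the 10 genes were 0% to 1.09% of those at the gene, except at *Acvr2a*, and the highest share in a single library was then 2.78% (*Fstl3* in adult 2). *Inha* and *Inhbb* lie on chromosome 1 and *Inhba* and *Fst* on chromosome 13, and no annotated gene overlaps *Inha*, *Inhbb* or *Bambi*. The spread between embryos, as the coefficient of variation of CPM, was 22.7% for *Bambi*, 24.0% for *Inha*, 37.9% for *Fstl3*, 38.3% for *Tgfbr3*, 41.4% for *Acvr1b*, 50.9% for *Acvr2a*, 55.5% for *Fst*, 65.8% for *Acvr2b*, 69.0% for *Inhbb* and 86.0% for *Inhba*. Without embryos 1 and 4 it was lowest for *Acvr2b* (13.3%), followed by *Bambi* (18.1%), *Inha* (19.2%), *Acvr1b* (21.9%), *Fst* (24.9%), *Tgfbr3* (40.1%), *Inhba* (41.8%), *Fstl3* (43.1%), *Inhbb* (45.9%) and *Acvr2a* (54.2%). Embryos 1 and 4 were both below the other 5 embryos for *Inhbb* and *Acvr1b* and both above them for *Acvr2b*. They lay on both sides of the other 5 for *Inha*, *Inhba* and *Fst*, and among them for *Fstl3*, *Acvr2a* and *Tgfbr3*. For *Bambi*, embryo 1 (31.4 CPM) was below the other 5 (40.9 to 64.7 CPM) and embryo 4 (56.2 CPM) was among them.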
